A study of Mus musculus with 12 samples.

Results

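The genes of cholesterol and fatty acid synthesis were followed through RNA-seq of dorsal root ganglia of adult mice in which Prdm12 had been deleted. The group holds 30 genes listed by name from the 2 pathways. The rule that lists them uses no measured value. All 30 matched an identifier among the 55416 genes counted, and all 30 were abundant enough to be tested in every comparison. They comprise 7 genes of the mevalonate arm, 3 genes that lead from farnesyl diphosphate to lanosterol, 8 genes that turn lanosterol into cholesterol, 4 genes of sterol control and transport, and 8 genes of fatty acid synthesis.

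The study holds 12 libraries of C57Bl6 mice, 6 from the inducible knockout (iKO) and 6 controls. The question it states is which genes Prdm12, a transcriptional regulator of pain-sensing neurons, controls in the adult ganglion. The 6 iKO libraries carried Rosa26Cre ERT2, a Cre recombinase that is made in nearly all cell types and acts once tamoxifen is present, with both Prdm12 alleles floxed (Fl/Fl), and came from tamoxifen-injected mice, 3 female and 3 male. The controls differed among themselves. Controls 1 (female) and 4 (male) carried the Cre with 1 and 0 floxed alleles. Controls 2 (female) and 3 (male) carried 1 floxed allele and no Cre, and all 4 of these received tamoxifen, spelled tamoxyfene in the labels. Controls 5 and 6, both male, had the iKO genotype (Rosa26Cre ERT2; Fl/Fl) and received corn oil. The design places the collection 1 month after tamoxifen. The labels do not state how many animals went into a library, so p-values here reflect only how far these samples differ from each other.

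Cells build cholesterol from acetyl-CoA through mevalonate, squalene and lanosterol, and fatty acids from the same acetyl-CoA through malonyl-CoA. Both routes are switched on by the SREBP transcription factors, which the sterol-sensing proteins SCAP and INSIG hold in the endoplasmic reticulum while sterols are plentiful. In a ganglion these lipids are needed for the membranes of neurons and above all for myelin, which Schwann cells make largely from cholesterol synthesized on the spot. Tamoxifen binds the sterol isomerase encoded by Ebp and the reductase encoded by Dhcr7.

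Prdm12 itself was at 117 ± 29.4 CPM (counts scaled to a common library size, after TMM normalization; SD, n = 6) in controls and 23.3 ± 2.51 CPM (n = 6) in iKO libraries, with no overlap (2-sided exact permutation test over all relabellings, p = 0.00216). Total counts ran from 13943784 to 20377766. Control 6 stood apart by a Prdm12 level of 64.6 CPM, the lowest among controls, and by 449 CPM summed over 7 skeletal muscle genes, against 19.3 to 100.1 in the other 11 libraries. Library iKO 1 stood apart by summed macrophage markers of 343 CPM (120.7 to 199 in the others) and fibroblast markers of 3927 CPM (1418 to 2162 in the others). Its endothelium markers summed to 250 CPM (114 to 153 in the others). All 14 sensory neuron markers were detected in every library, but their sum was lowest in iKO 1. It was 13776 CPM there and 15335 to 21077 CPM in the others. The alternatives without these libraries are given where they bear on a result.

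The 30 genes together took between 0.672% (control 6) and 0.804% (control 3) of all counts of a library. To compare genes, levels were divided by the length of all annotated exons, such as 17.1 kb for Acaca and 10.8 kb for Lss. This length can exceed that of the transcripts present, so the order between genes is approximate. Per kilobase of exon the fatty acid desaturases led. Scd2, which makes monounsaturated fatty acids, had a mean level of 337 CPM per kilobase over 12 libraries, and Scd1, its close relative, 220.0. Acly, which supplies acetyl-CoA from citrate, followed with 149, and Hmgcs1, which makes the precursor of mevalonate, with 138. These 4 genes lay above Fdft1, the squalene synthase, at 58.0. At the lower end stood the lanosterol synthase gene Lss with 8.68, the farnesyl diphosphate synthase gene Fdps with 4.22, the acetyl-CoA carboxylase gene Acaca with 3.99 and the isomerase gene Idi1 with 1.60. The range from Scd2 to Idi1 spanned 211-fold on these lengths. Fdps, Acaca and Idi1 also share 25.3% to 30.4% of their 50-base stretches with other genes. In this order, 16 of the 29 neighbouring pairs had control means closer than the larger of their SDs. Acly and Hmgcs1 were such a pair, and so were Acat2, Pmvk and Sqle in succession, whereas Scd2 and Scd1 differed by more than their SD.

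**Figure D1:**
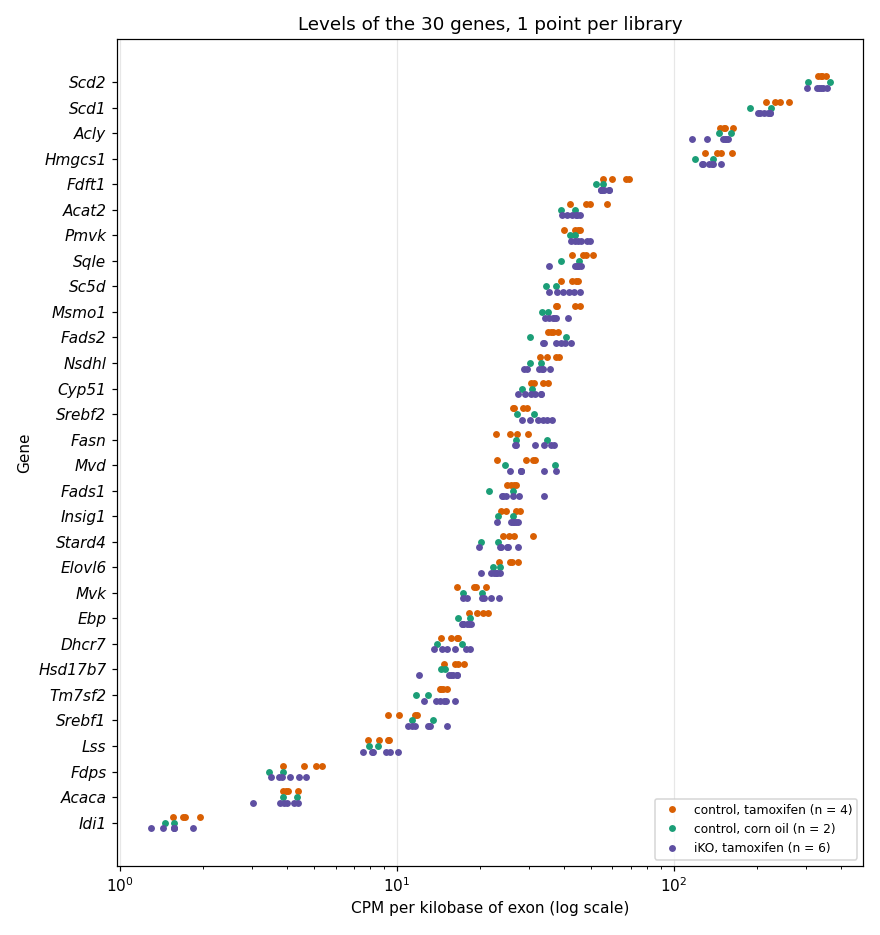
Level of each of the 30 genes in each library, in CPM per kilobase of all annotated exons, on a log axis. Genes are ordered by their mean over 12 libraries, with 1 point per library, coloured by group. Scd2 (337) and Scd1 (220.0) lie at the top and Idi1 (1.60) at the bottom, and for each gene the 3 groups lie close to each other compared with the 211-fold range between genes.

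The levels varied little from library to library. The SD of log2 CPM over the 12 libraries had a median of 0.14 over the 30 genes, from 0.08 for Scd2 to 0.22 for the fatty acid synthase gene Fasn. Over all 16384 genes tested the median SD was 0.17, and it was 0.12 over the 4336 genes between 51.3 and 648 CPM, a range of level like that of most of the 30. Control 3 held the highest value of all 12 libraries for 12 of the 30 genes and iKO 3 for 6. Control 6 and iKO 1 each held the lowest value for 10. Among controls alone, control 6 was lowest for 21 genes.

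In the comparison of iKO with control, none of the 30 genes passed the test for a change. Their log2 fold changes lay between -0.14 (Elovl6) and 0.20 (Srebf2), with 13 above 0, 17 below 0 and a median of -0.03, against 0.00 over all genes tested. No member passed an adjusted p of 0.05 in edgeR's quasi-likelihood test after Benjamini-Hochberg adjustment, where 155 of 16384 genes (0.946%) did. DESeq2 and limma-voom called 0 members too, beside 294 and 157 of 16384 genes. At an unadjusted p under 0.05, 1 member was higher (Srebf2) and 1 lower (Elovl6), against 5.33% and 4.18% of all genes (9.52% in both directions). For 0 of the 30 genes were the iKO and control libraries free of overlap, a pattern that 0.879% of all genes showed upward and 0.665% downward. The 95% intervals, each for 1 gene in this fit of both kinds of control, concern RNA of the whole ganglion and not of 1 cell type. All 30 lay within 0.5 log2 units of 0, and the farthest bound of any was 0.44, for Fasn. Against the tamoxifen controls alone 29 of 30 did, and the farthest bound was 0.53, again for Fasn. In such bulk samples, fewer cells of a type and less RNA per cell cannot be told apart. Of 14 markers of myelinating Schwann cells, 4 were higher in the iKO at an unadjusted p under 0.05 and 0 were called, with summed levels of 4375 to 5582 CPM in controls and 4991 to 7110 CPM in iKO libraries. With the mean of these markers as a covariate, 24 of the 30 genes had positive fold changes and the median of the 30 was 0.04. In that fit 0 of the 30 were called, beside 114 of 16384 genes.

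**Figure D2:**
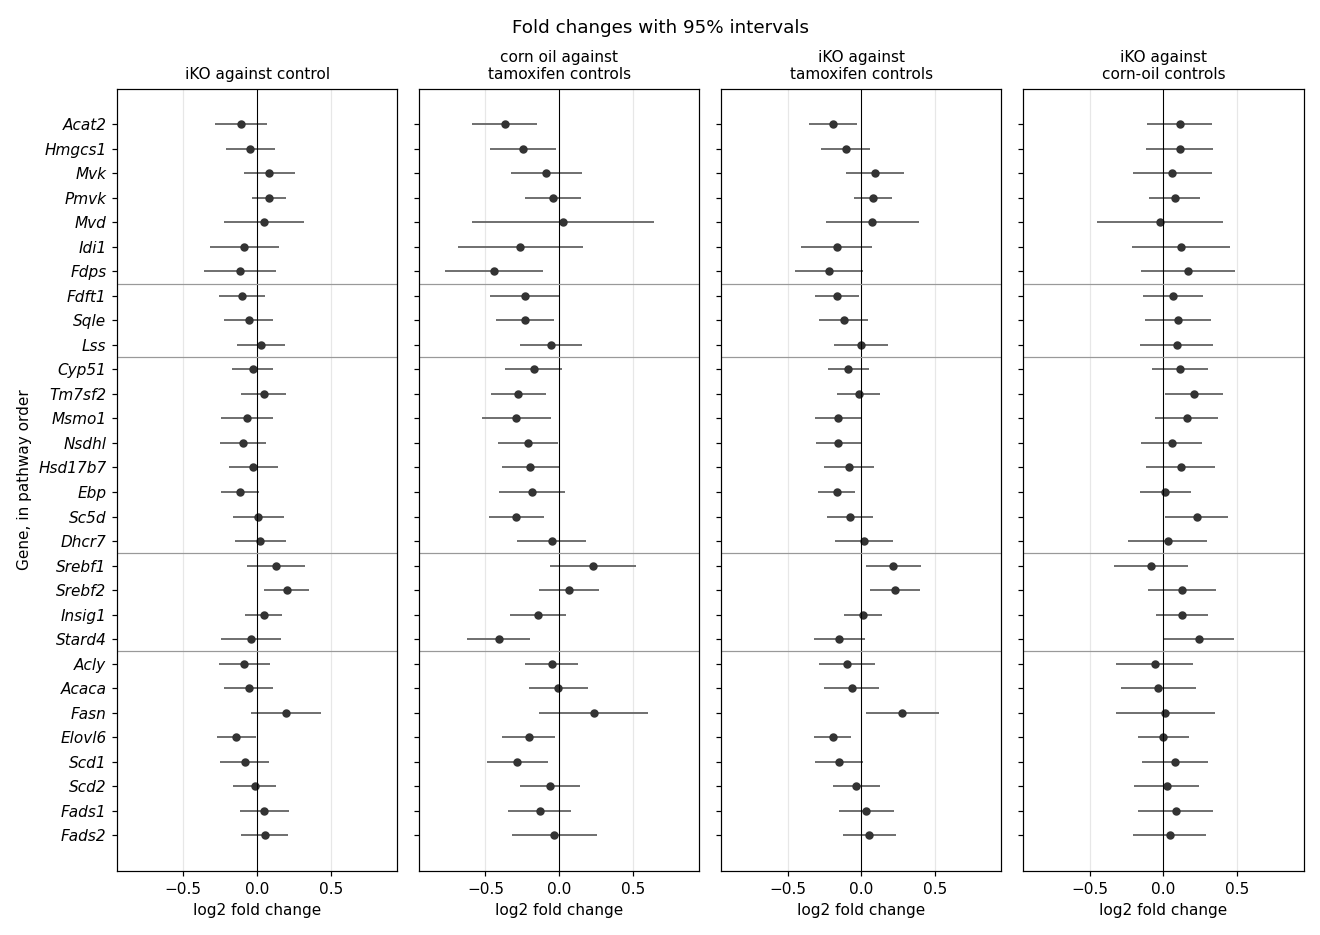
Log2 fold change of each gene, in pathway order, with its 95% interval (edgeR quasi-likelihood fit), in 4 comparisons, one panel each. In the iKO against control panel every interval stays within 0.5 log2 units of 0, while 26 of the 30 points of corn oil against tamoxifen lie below 0 and 13 of those intervals leave 0 out.

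Corn oil against tamoxifen within the 6 controls gave lower values for most of the sterol genes, none past the adjusted threshold. Of the 30 genes 26 had negative fold changes, with a median of -0.18 against 0.00 over all genes tested. The median was -0.20 over the 22 sterol genes, of which 19 were negative, and -0.06 over the 8 fatty acid genes, of which 7 were negative. In edgeR's quasi-likelihood test after Benjamini-Hochberg adjustment 0 of 16791 genes (0%) were called, members included. At an unadjusted p under 0.05, 13 members were lower and 0 higher, against 5.97% and 7.37% of all genes. These were Acat2, Hmgcs1, Fdps, Fdft1, Sqle, Tm7sf2, Msmo1, Nsdhl, Hsd17b7, Sc5d, Stard4, Elovl6 and Scd1. Both corn-oil libraries lay below all 4 tamoxifen libraries for Tm7sf2, Msmo1, Sc5d and Stard4, that is 4 of 30, beside 13.7% of all genes, so this count is near the background.

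The corn-oil difference moved with the test and with single libraries. DESeq2 called 1 of the 30 genes (Stard4, adjusted p = 0.0212), beside 195 of 16791 genes in all. The edgeR test without a filter on low counts called 4 (Acat2, Msmo1, Sc5d and Stard4), beside 659 of 32635. Without control 3 the number of members lower at an unadjusted p under 0.05 went from 13 to 4 and the median to -0.14. The share of all genes under that p, in both directions, fell as well, from 13.3% to 5.07%. Without control 6 the median of the members was -0.11, and without control 5 it was -0.25. In these last fits the corn-oil group is 1 library, which is assumed to vary as the tamoxifen controls do. In a fit of all 12 libraries with 3 groups, 9 members were lower and 1 higher at an unadjusted p under 0.05, with a median of -0.19. Of all genes, 11.6% lay under that p in both directions. With the run of sample numbers as a further term 0 members were lower, beside 3.22% of all genes in both directions, and the median was -0.14. Among the controls only the corn-oil libraries carry 2 floxed alleles and belong to the later run of sample numbers, so agent, allele number and run cannot be told apart.

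Markers of other cells moved with this comparison. Of 14 genes of myelinating Schwann cells, all 14 were higher with corn oil, 10 at an unadjusted p under 0.05 and 0 past the adjusted threshold, with a median log2 fold change of 0.37. Their summed level was 4375 to 5012 CPM in the 4 tamoxifen controls and 5395 and 5582 CPM in the corn-oil controls, without overlap, and none was at 0 in any library. The 5 erythroid genes were also all higher at an unadjusted p under 0.05, summing to 260.2 and 267 CPM with corn oil and to 123 to 196 CPM with tamoxifen. Of 11 satellite glia markers 10 were higher with corn oil, 3 at an unadjusted p under 0.05 (median 0.19), with sums of 1065 and 1199 CPM against 983 to 1166 with tamoxifen. Of 8 adipocyte markers tested 7 were lower, as the sterol genes were, 0 at an unadjusted p under 0.05 (median -0.45), with sums of 18.8 and 36.8 CPM against 22.6 to 54.7, and Lep was at 0 in 7 of the 12 libraries. All 7 skeletal muscle genes were higher with corn oil, 0 at an unadjusted p under 0.05, with a median of 1.61. Their sum was 449 CPM in control 6 but 51.4 CPM in control 5, against 20.5 to 91.1 CPM with tamoxifen. Control 6 was also the library that was lowest among controls for 21 members. The medians of the sterol genes and of the myelin genes had opposite signs. The part of these cells in the sterol result was not tested.

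**Figure D3:**
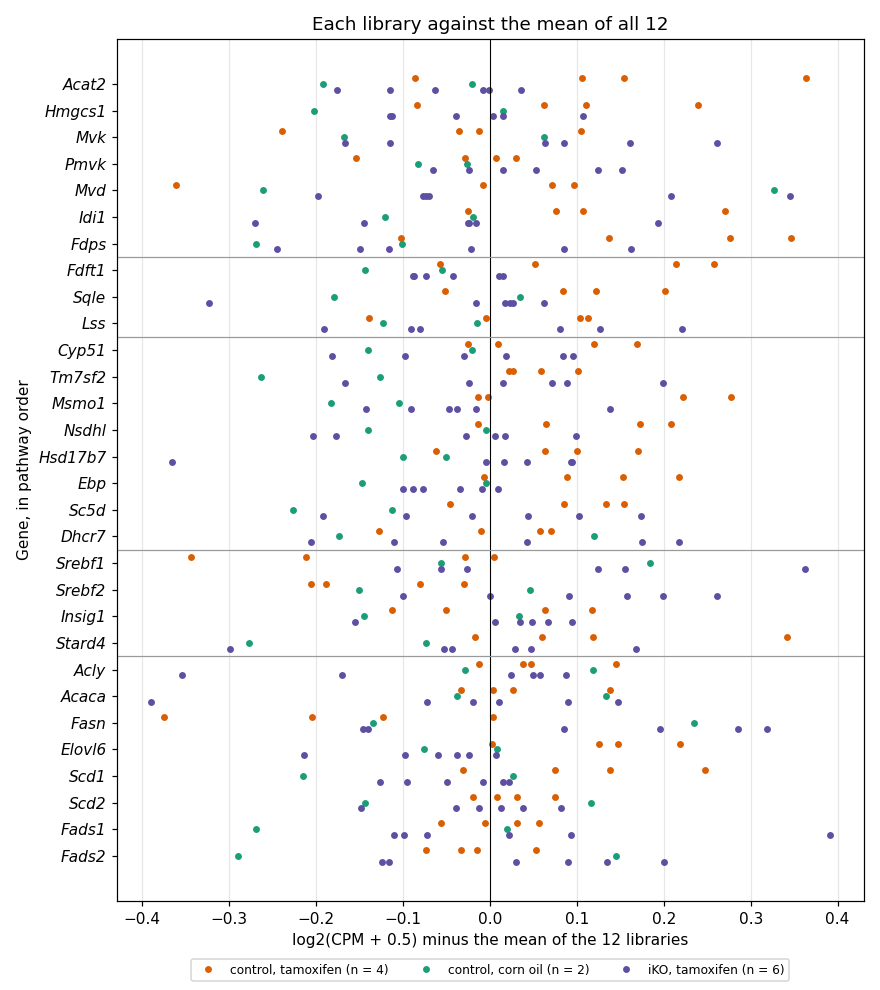
Level of each gene in each library as log2(CPM + 0.5) minus the mean of the 12 libraries, 1 point per library, with genes in pathway order and grey lines between the 5 roles. Tamoxifen controls lie mostly to the right of the corn-oil controls in the sterol blocks, as for Tm7sf2, Msmo1, Sc5d and Stard4, and iKO libraries spread across both.

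Among the 4 genes of control and transport, Srebf2 came closest to a difference between iKO and control. It encodes SREBP2, the factor that turns on the cholesterol genes. The 6 controls ran from 188 to 224 CPM with a median of 200.3, and the 6 iKO libraries from 202 to 260.1 with a median of 237. All 6 iKO libraries lay above the control median and 4 above every control, and the groups overlapped. The log2 fold change was 0.20 ± 0.07 (SE) with an adjusted p of 0.350. It was 0.22 (adjusted p = 0.129) without iKO 1 and control 6, and over 25 alternatives it ran from 0.18 to 0.25 with adjusted p from 0.0946 to 0.623. By agent, the tamoxifen controls were at 205, 190.3, 188 and 212 CPM and the corn-oil controls at 224 and 195. These values overlapped, with a log2 difference of 0.07 ± 0.09.

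Srebf1, whose product SREBP1 acts mainly on fatty acid genes, was at 52.4 to 75.7 CPM (median 64.6) in controls and 61.8 to 85.7 (median 69.0) in iKO libraries. The highest value was that of iKO 1, and the log2 fold change of 0.13 ± 0.09 did not pass the test (adjusted p = 0.698). Insig1, a sterol-sensing anchor and itself a target of SREBP2, was at 78.7 ± 5.68 CPM in controls and 80.4 ± 4.80 in iKO libraries (SD, n = 6 each). Stard4 encodes a carrier that moves cholesterol between membranes. It was at 113 to 173 CPM (median 139) in controls and 111 to 153 (median 136) in iKO libraries, with a log2 fold change of -0.04 ± 0.10. By agent, however, Stard4 had the smallest p of the group. The tamoxifen controls were at 142, 135, 173 and 148 CPM and the corn-oil controls at 129.7 and 113. The groups did not overlap, and the log2 difference of corn oil from tamoxifen was -0.41 ± 0.10 (unadjusted p = 0.00133, adjusted p = 0.217). It was -0.29 without control 3 (adjusted p = 0.950) and -0.30 without control 6, which leaves 1 corn-oil library. Over 13 alternatives it ran from -0.52 to -0.26, with adjusted p from 0.00077 without a filter to 0.993 with the run of sample numbers as a term.

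No gene of the mevalonate arm passed the test between iKO and control, and the 7 fold changes lay between -0.12 (Fdps) and 0.08 (Mvk), with 3 above 0. Acat2, the thiolase of the entry step, was at 99.4 to 146 CPM (median 117) in controls and 100.5 to 116 (median 111) in iKO libraries. All 6 iKO libraries lay below the control median and inside the control range. Its log2 fold change was -0.11 ± 0.08 (adjusted p = 0.712). Hmgcs1 was at 644 ± 68.2 CPM in controls and 621 ± 36.6 in iKO libraries. Mvk and Pmvk, which phosphorylate mevalonate in succession, stood at fold changes of 0.08 each, and the decarboxylase gene Mvd, at 0.05, had the widest interval of the 30, from -0.23 to 0.32. Idi1 had the fewest counts, with 4.53 to 6.82 CPM and 70 counts in its lowest library.

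By agent, 6 of the 7 mevalonate genes were lower with corn oil, 3 of them at an unadjusted p under 0.05, beside 5.97% of all genes. These 3 are among the 13 members listed above. Fdps, whose product feeds both squalene and the prenyl groups of proteins, had the lowest fold change of the 30. It was at 21.4, 16.3, 22.5 and 19.4 CPM with tamoxifen and 16.3 and 14.5 with corn oil. Control 2 of the tamoxifen group thus sat beside control 5, and the log2 difference was -0.44 ± 0.15 (adjusted p = 0.271). Acat2 was at 122, 107, 146 and 126 CPM with tamoxifen and at 112 and 99.4 with corn oil. The groups overlapped, the log2 difference was -0.37 ± 0.10 (adjusted p = 0.217), and without control 3 it was -0.26. Hmgcs1 was at 681, 595, 744 and 658 CPM against 637 and 548, a difference of -0.24 ± 0.10 (adjusted p = 0.340). Mvk, Pmvk and Mvd lay between -0.09 and 0.03.

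Hmgcs1 is shown with the letters before its start because it was the only one of 23 members with a RefSeq promoter window in which TCACNCCAC, the core of a sterol regulatory element to which SREBP2 binds, was found. The window runs from 250 bases before to 50 bases after the start, and both strands were searched. The stretch lies at chr13:119690184-119690252 (GRCm38.p6, + strand), the match begins 137 bases before the start, and capitals mark it.
Hmgcs1: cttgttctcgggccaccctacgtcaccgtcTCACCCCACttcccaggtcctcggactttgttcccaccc
The match was present in 1 of 23 members (4.35%) and in 1.44% of 27025 genes with a window. CCAAT was found in 19 of 23 members (82.6%) against 41.1% of those genes, and GGGCGG in 19 of 23 (82.6%) against 38.2%. These 2 are the boxes of the cofactors that work beside SREBP, NF-Y and SP1. In the stretches printed here no match overlaps another. A match describes the letters and is no evidence that a factor was bound. Fdps, Fdft1, Sqle, Stard4, Scd1, Scd2 and Fads1 were not among the 23.

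None of the 3 genes from squalene to lanosterol passed the test between iKO and control. Fdft1, which joins farnesyl units to squalene, was at 221 to 292 CPM (median 244) in controls and 229.8 to 247 (median 235) in iKO libraries. The iKO values lay inside the control range, with a log2 fold change of -0.10 ± 0.07 (adjusted p = 0.694). Sqle, the epoxidase that is a control point of the route, stood at -0.06 ± 0.08 and Lss at 0.02 ± 0.08. Library iKO 1 was low for Sqle, at 196 CPM, where the other 5 iKO libraries were at 243 to 256, and without it the fold change of Sqle was -0.01. By agent, Sqle was at 260.2, 237, 282 and 267 CPM with tamoxifen and 252 and 217 with corn oil, a log2 difference of -0.23 ± 0.09 (adjusted p = 0.314). Fdft1 was at 292, 235, 283 and 253 CPM against 235 and 221, a difference of -0.23 ± 0.11 (adjusted p = 0.370). For both genes the agent groups overlapped through control 2, the lowest of the tamoxifen controls, and Lss differed by -0.06 ± 0.10.

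The 8 genes that carry lanosterol to cholesterol had iKO fold changes from -0.12 to 0.04, none of which passed the test. Ebp, the isomerase to which tamoxifen binds, was at 38.2 to 49.3 CPM (median 43.7) in controls and 39.5 to 42.7 (median 40.8) in iKO libraries. All 6 iKO libraries lay below the control median, and the groups overlapped. The log2 fold change was -0.12 ± 0.06 (adjusted p = 0.57). Nsdhl, a dehydrogenase that helps remove methyl groups from the sterol ring, stood at -0.10 ± 0.07 and Msmo1, the oxidase of the same step, at -0.07 ± 0.08. Cyp51, the first demethylase after lanosterol, was at -0.03 ± 0.07, Hsd17b7, the reductase of the demethylation complex, at -0.03 ± 0.08 (0.03 without iKO 1), Sc5d, a desaturase, at 0.01 ± 0.08, Dhcr7, the last reductase, at 0.02 ± 0.08, and Tm7sf2, another reductase, at 0.04 ± 0.07.

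By agent all 8 of these genes were lower with corn oil, 5 at an unadjusted p under 0.05, beside 5.97% of all genes. These 5 are among the 13 members listed above. Sc5d was at 216, 191, 219 and 209 CPM with tamoxifen and 182 and 168 with corn oil. The groups did not overlap, and the log2 difference was -0.29 ± 0.08 (adjusted p = 0.227). Tm7sf2 was at 63.1, 63.3, 64.8 and 66.7 CPM against 56.9 and 51.7, again without overlap, with a difference of -0.28 ± 0.08 (adjusted p = 0.238). The 4 tamoxifen values of Tm7sf2 lay close together, with an SD of 1.67. Msmo1 was at 271, 230.0, 282 and 232 CPM against 216 and 205, with a difference of -0.29 ± 0.11 (adjusted p = 0.308) that was -0.14 without control 3. Ebp and Dhcr7, whose products bind tamoxifen, were among the 3 members of this block that missed an unadjusted p of 0.05. Ebp was at 47.2, 45.1, 49.3 and 42.2 CPM against 38.2 and 42.3, a difference of -0.19 ± 0.10. Dhcr7 was at 95.4, 83.9, 91.0 and 96.3 CPM against 99.7 and 81.3, so that the corn-oil pair spanned the whole range of the tamoxifen group, with a difference of -0.05 ± 0.11.

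The 100 bases before the start are shown for the 3 members of this block whose agent groups did not overlap. They are read 5′ to 3′ on the strand of the gene, from RefSeq on GRCm38.p6, and capitals mark CCAAT or GGGCGG on either strand, so that ATTGG is a CCAAT of the other strand. Tm7sf2 lies at chr19:6067851-6067950 (- strand), Msmo1 at chr8:64733579-64733678 (- strand) and Sc5d at chr9:42264301-42264400 (- strand).
Tm7sf2: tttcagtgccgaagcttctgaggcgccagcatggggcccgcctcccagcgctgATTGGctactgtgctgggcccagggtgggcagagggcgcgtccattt
Msmo1: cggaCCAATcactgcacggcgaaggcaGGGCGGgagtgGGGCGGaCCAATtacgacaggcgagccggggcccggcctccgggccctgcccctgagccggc
Sc5d: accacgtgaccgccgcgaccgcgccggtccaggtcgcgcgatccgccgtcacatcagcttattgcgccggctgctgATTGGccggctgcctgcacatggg
In these stretches Msmo1 holds 2 CCAAT and 2 GGGCGG, and Tm7sf2 and Sc5d hold 1 CCAAT each and 0 GGGCGG.

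Of the 8 fatty acid genes, Elovl6 and Fasn lay farthest from 0 in the iKO, in opposite directions. Elovl6 lengthens palmitate to stearate. Controls were at 143 to 175 CPM (median 158) and iKO libraries at 129.7 to 151 (median 145). All 6 iKO libraries lay below the control median and 2 below every control, and the log2 fold change was -0.14 ± 0.06 (adjusted p = 0.499). Fasn, which builds palmitate, was at 249.9 to 382 CPM (median 297) in controls and 293 to 405 (median 358) in iKO libraries. Libraries iKO 2, 3, 5 and 6 lay above the control median and iKO 1 and 4 below it. Its log2 fold change was 0.20 ± 0.11 (adjusted p = 0.604).

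The remaining fatty acid genes, like Fasn, had group means closer than the larger of their SDs. Acly was at 811 ± 39.1 CPM in controls and 759 ± 86.9 in iKO libraries, where iKO 1 was lowest with 611. Acaca was at 69.8 ± 3.90 and 66.5 ± 8.21, again with iKO 1 lowest at 51.7. Without iKO 1 the log2 fold change of Acly went from -0.09 to -0.04 and that of Acaca from -0.06 to 0.00. Scd1 was at 1108 ± 119 and 1044 ± 43.7, and all 6 iKO libraries lay below the control median. Its log2 fold change was -0.09 ± 0.08, and that of Scd2 was -0.02 ± 0.07. Fads1 and Fads2, the desaturases of polyunsaturated fatty acids, stood at 0.05 each, and Fads1 at 0.00 without iKO 1, its highest library, and at -0.04 without iKO 1 and control 6. Adipocytes make these enzymes as well. Their 9 markers summed to 66.7 CPM in iKO 1 and to 15.9 to 54.7 CPM in the other libraries, 0 of the 8 tested passed an unadjusted p of 0.05 between iKO and control, and Lep was at 0 in 7 libraries.

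By agent, 2 of the 8 fatty acid genes were lower at an unadjusted p under 0.05, beside 5.97% of all genes. Both are among the 13 members listed above, and neither passed the adjusted threshold. Scd1 was at 1130, 1049.6, 1273 and 1181 CPM with tamoxifen and 1093 and 924.4 with corn oil, a log2 difference of -0.28 ± 0.09 (adjusted p = 0.268). Without control 6 it was -0.15. Elovl6 was at 167, 151, 175 and 164 CPM against 151 and 143, a difference of -0.21 ± 0.08 (adjusted p = 0.321). Fasn differed in the other direction, by 0.24 ± 0.16, with 382 and 295 CPM for corn oil and 298, 281, 249.9 and 325 for tamoxifen, and its groups overlapped. Acly, Acaca, Scd2 and Fads2 lay between -0.06 and -0.01. For Scd2 and Fads2 the corn-oil pair held the highest and the lowest control.

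The iKO libraries were also set against each kind of control, in fits that share the iKO libraries with each other and the controls with the comparisons above. Ordered by group mean, the corn-oil controls were lowest for 22 of the 30 genes and the tamoxifen controls highest for 19. Over the 22 sterol genes the tamoxifen controls were highest for 15 and the corn-oil controls lowest for 19, while the iKO was lowest for 0. Among the 8 fatty acid genes no such order appeared, with the iKO lowest for 4, corn oil for 3 and tamoxifen for 1. The iKO differed from the tamoxifen controls by a median of -0.08 with 20 negative, and from the corn-oil controls by a median of 0.08 with 5 negative.

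**Figure D4:**
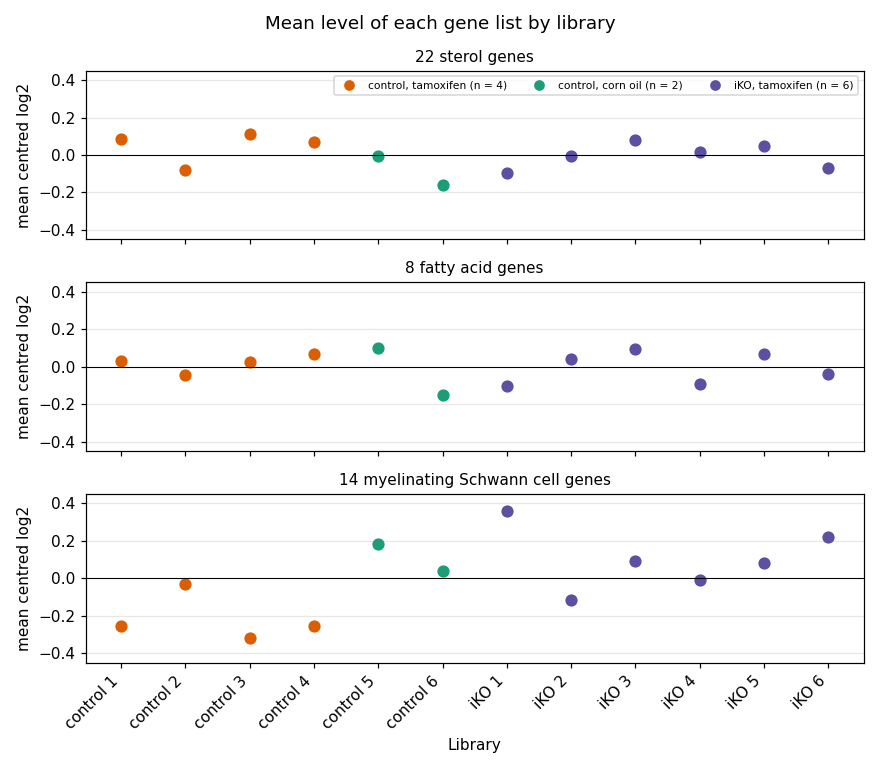
Each point is a library's log2(CPM + 0.5), taken relative to the 12-library mean of each gene and averaged over the 22 sterol genes, the 8 fatty acid genes or 14 myelinating Schwann cell markers, coloured by group. The sterol score is lowest in control 6 (-0.16) and highest in control 3 (0.11), while the myelin score is below 0 in all 4 tamoxifen controls and highest in iKO 1 (0.36).

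Against the tamoxifen controls, with which the iKO shares its agent, 0 of the 30 genes passed the adjusted threshold that 222 of 16384 genes (1.35%) passed. At an unadjusted p under 0.05, 3 members were higher (Srebf1, Srebf2 and Fasn), beside 9.46% of all genes, and 6 lower (Acat2, Fdft1, Msmo1, Nsdhl, Ebp and Elovl6), beside 7.56%. No member was free of overlap, against 2.55% of genes upward and 2.18% downward. Elovl6 had the smallest p, with a log2 fold change of -0.20 ± 0.06 and an adjusted p of 0.121 in edgeR's quasi-likelihood test. Its iKO range of 129.7 to 151 CPM met that of the tamoxifen controls, 151 to 175, through control 2. Srebf2 stood at 0.23 ± 0.08 (adjusted p = 0.161), Fasn at 0.28 ± 0.12 (adjusted p = 0.242) and Srebf1 at 0.22 ± 0.09 (adjusted p = 0.223).

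These calls changed with library iKO 1. Without it Srebf2 rose by 0.26 ± 0.07 (adjusted p = 0.0239) and Elovl6 fell by 0.17 (adjusted p = 0.0465) against the tamoxifen controls, with 1459 of 16454 genes called. Without iKO 1 and control 6 Srebf2 (0.26, adjusted p = 0.0172) and Fasn (0.34, adjusted p = 0.0257) were called and Elovl6 was not. In that fit 1608 of 16343 genes were called. Without a filter on low counts Fasn alone of the 30 was called (0.30, adjusted p = 0.0106), beside 927 of 35885 genes. Over 17 alternatives the adjusted p ran from 0.0172 to 0.508 for Srebf2, from 0.0465 to 0.376 for Elovl6 and from 0.0106 to 0.618 for Fasn, each with 1 sign throughout. Myelinating Schwann cell markers were higher in the iKO than in the tamoxifen controls as well, 8 of 14 at an unadjusted p under 0.05, with a median log2 fold change of 0.32. The summed markers were at 4991 to 7110 CPM in the iKO, and the part of myelin in these values was not tested.

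Against the corn-oil controls, which share the iKO genotype and differ in the agent, 0 of the 30 genes passed the adjusted threshold that 24 of 16384 genes (0.146%) passed. The 25 positive fold changes included 3 at an unadjusted p under 0.05, beside 2.75% of all genes in that direction and 5.30% in both. These were Tm7sf2 (0.21 ± 0.09), Sc5d (0.23 ± 0.10) and Stard4 (0.24 ± 0.11), and the smallest adjusted p was 0.913. At an unadjusted p under 0.05, 0 members were lower, beside 2.55%, and no member was free of overlap, beside 4.39% upward and 3.61% downward. With 2 corn-oil libraries the median moved with each of them, to 0.20 without control 5 and to 0.02 without control 6. Markers of other cells moved with this comparison. All 5 erythroid genes were lower in the iKO at an unadjusted p under 0.05 (median -1.39), with sums of 72.5 to 287 CPM in the iKO and 260.2 and 267 CPM with corn oil. All 7 skeletal muscle genes had negative fold changes, 4 at an unadjusted p under 0.05 (median -1.72), with sums of 19.3 to 100.1 CPM against 51.4 and 449. Of these, only Myh1 was at 0 in 1 library, and the part of these cells in the result was not tested.

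Sex gave no call among the genes. Between 7 male and 5 female libraries, 0 of the 30 genes passed the adjusted threshold that 9 of 16384 genes (0.0549%) passed. The median log2 difference of male from female was 0.01. At an unadjusted p under 0.05, 1 member, Fads1, was lower in males (-0.17 ± 0.08, adjusted p = 0.904), beside 2.80% of all genes, and 0 were higher, beside 1.31% (4.11% in both directions).

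Genes next to the 30 in the same pathways gave no call between iKO and control either, where 155 of 16384 genes (0.946%) were called. At that share few calls or none would fall on lists of this size. Of 11 other genes of sterol and isoprenoid synthesis that were tested, 0 were called and the median log2 fold change was 0.01. Of 11 genes of SREBP control 0 were called, led by Scap, the sterol sensor that escorts SREBP (0.15 ± 0.07, adjusted p = 0.523). Of 15 genes of sterol uptake, efflux and esters 0 were called, led by the exporter gene Abca1 (-0.17 ± 0.06, adjusted p = 0.281). Of 28 other fatty acid genes 0 were called, led by Acsl4, which activates arachidonate (-0.22 ± 0.10, adjusted p = 0.481), and of 11 genes of myelin lipids 0 were called, led by Fa2h, which hydroxylates myelin fatty acids (0.43 ± 0.15, adjusted p = 0.351). At an unadjusted p under 0.05 these 76 genes held 5 higher and 2 lower values, beside 5.33% and 4.18% of all genes.

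By agent 0 of 16791 genes were called, those of the same lists included. Of the 76, 11 were higher and 5 lower at an unadjusted p under 0.05, beside 7.37% and 5.97% of all genes. The median of the list of other sterol genes was 0.01, beside the -0.20 of the 22 sterol members, and 6 of its 11 genes were above 0. Scap was higher (0.29 ± 0.09, adjusted p = 0.253), and so was Lrp1, a receptor that takes up lipoproteins (0.33 ± 0.09, adjusted p = 0.217). Acsl4 was lower (-0.36 ± 0.08, adjusted p = 0.208), and Ugt8a, which makes the galactolipids of myelin, was higher (0.35 ± 0.12, adjusted p = 0.283).

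Some of the 30 genes share letters or exons with others, which can add or remove reads. Of the 50-base stretches of Acat2, 39.1% also occur in Acat3, and of those of Acaca, 29.2% occur in the gene model Gm5182. Fdft1 shares 18.3% of its exon bases with Ctsb on the opposite strand, an abundant lysosomal protease gene at 2120 CPM, and the libraries do not record strand. Tm7sf2 shares 12.1% of its exon bases with Vps51, Fdps 26.7% with the model Gm43738, at 0 counts in all libraries, and Hmgcs1 12.1% with the antisense model Gm48342 at 1.10 CPM. Of the 50-base stretches of Idi1, 25.3% occur in other genes. These shares are of all annotated exons or transcripts of a gene, and the share of reads affected was not measured. Values of Acat2, Acaca, Idi1, Fdps and Fdft1 are thus uncertain to an unknown extent.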

How the data were processed

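RNA-seq counts of 12 libraries of mouse dorsal root ganglia were analysed. The deposited tables hold raw counts per gene made by the authors by alignment to GRCm39 with STAR 2.7.8a and counting with featureCounts 2.0.1, after bcl2fastq 2.20.0.422, per the submitters' processing notes, from poly(A) libraries without strand information, per the labels' protocols. Annotation release and counting options: not given in the sources used here. Symbols were matched by Ensembl identifier for 52083 of 55416 genes, which held 99.7% of counts. Faxdc2 and Spring1 were matched to no identifier and are not analysed here.

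Counts were scaled by TMM, filtered with filterByExpr and tested with edgeR's quasi-likelihood test (edgeR 4.0.16, R 4.3.3, robust, sex as a term), with Benjamini-Hochberg adjustment over all genes tested and a threshold of 0.05. Residual degrees of freedom were 9 for iKO against control, 3 within the controls and 8 with 3 groups. The biological coefficient of variation was 12.8%, larger than counting error at these depths. Levels are CPM on the scaled library sizes, and log2 values used a pseudocount of 0.5. Exon lengths, overlaps and shared 50-base stretches came from the GENCODE annotation of GRCm38, used for names and lengths only, and promoter letters from RefSeq on GRCm38.p6. DESeq2 1.42.0, limma-voom (limma 3.58.1), other scaling, filters, terms and left-out libraries were alternatives. The procedure was tested on simulated data.

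The rule for the members uses no measured value, but members and lists were chosen with earlier results of these data known. The text names the 30 members, and from each related list up to 4 called genes or, where none was called, the gene with the smallest p, with some genes not reported here. Markers are those of cell types the ganglion could hold.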

Additional observations from a re-analysis of the deposited data

Results flagged for a closer look

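The values of each of the 30 genes were examined in the 6 controls, the 6 iKO libraries and the 4 tamoxifen controls. In 5 of these 90 groups 1 library lay far from the others, a number near the 1 in 20 that chance alone marks. The 4 tamoxifen controls are also among the 6 controls, so the 90 groups are not independent. Library iKO 1 was low for Sqle, at 196 CPM where the nearest iKO library was at 243, for Hsd17b7, at 61.1 CPM against 78.6, and for Insig1, at 71.2 CPM against 79.7. It was high for the desaturase gene Fads1, at 164 CPM against 133. Control 6 was low for Fads1, at 104 CPM against 120.1 in the nearest control.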

How the results depend on the processing

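Between iKO and control 0 of the 30 genes were called under each of the 25 alternatives run. Those fits called from 35 of 16572 genes (within replicates 1 to 4) to 364 of 16454 (without iKO 1). The median of the members' log2 fold changes kept within 1 SD between libraries (0.07) of its value except within replicates 5 and 6, where it was 0.0508. Leaving out each library in turn gave medians of -0.05 to 0.00. For corn oil against tamoxifen the number called was 4 without a filter, beside 659 of 32635 genes, and 1 with DESeq2, beside 195 of 16791. It was 0 in the other fits that kept both corn-oil libraries, beside 0 to 7 genes in all. For iKO against the tamoxifen controls the number called was 1 without a filter, beside 927 of 35885 genes. It was 0 to 2 with 1 library left out (2 without iKO 1, beside 1459 of 16454 genes). Without iKO 1 and control 6, an alternative chosen after seeing the data, it was 2, beside 1608 of 16343 genes. For iKO against the corn-oil controls the median ran from 0.0187 (without control 6) to 0.199 with 1 library left out, the highest without control 5. The causes were not tested.

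With the replicate number as a block in place of sex, 0 members were called between iKO and control (161 of 16384 genes in all, median of members -0.04). Against the tamoxifen controls 0 members were called (78 genes in all, median of members -0.10). Against the corn-oil controls 0 were called (2 genes in all, median of members 0.05). Deviations of libraries with the same number had correlations of 0.23, 0.18, -0.17, 0.09, 0.21 and 0.05 for numbers 1 to 6, that is 3 of 6 over 0.1, and 4 of 6 controls correlated best with the iKO library of their own number. Nothing in the labels ties equal numbers to a shared litter or day, so the samples were treated as sharing only a number. No 2 libraries agreed within sampling noise, the lowest chi-square per degree of freedom being 3.19. Depth limits only Idi1 and Fdps, whose lowest libraries held 70 and 225 counts.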
